A study of Homo sapiens with 16 samples.

Results

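The adrenergic core transcription factors of neuroblastoma were examined in IMR32 cells depleted of TPX2. The set was given as 8 symbols: PHOX2A, HAND2, GATA2, GATA3, ISL1, TBX2, MEIS2 and TFAP2B. Members were the rows of the raw count table whose Ensembl identifier maps to these symbols, and all 8 were found among 58787 rows. Of these, 7 were among the 14193 genes with enough counts to be tested, and TFAP2B was not.

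IMR32 is an established human line of neuroblastoma with amplification of MYCN. The labels give its tissue as brain and its cell type as neuroblast, whereas the line is known to come from an abdominal tumour. It is 1 line from 1 tumour, so no result here extends to other tumours. Every group was transfected with a small interfering RNA (siRNA): the control group received a non-targeting siRNA, siNTC, and the knockdown groups received si45, si46 or si47, each directed against TPX2, which encodes a spindle assembly factor and activator of the kinase AURKA. The table's headers place all libraries at 48 h, each group had 4 replicates, and 16 libraries were sequenced in all. Reads came from the 3′ ends of transcripts, so a level in CPM, the count scaled to a common library size, does not grow with transcript length and may be compared between genes.

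Neuroblastoma arises from sympathetic neuroblasts, cells of the neural crest. In the adrenergic state a small circuit of transcription factors binds the enhancers of its own members and of one another, and keeps genes of the noradrenergic neuron active. In the mesenchymal state this circuit is weak and factors of neural crest and mesenchymal cells are used in its place. The 8 factors are not the whole circuit. PHOX2A is a homeodomain protein that specifies noradrenergic neurons. HAND2 is a basic helix-loop-helix protein required for sympathetic neurons to acquire the noradrenergic phenotype, and it binds DNA as a dimer with an E protein. GATA2 and GATA3 are zinc finger factors that act downstream of the first sympathetic determinants. ISL1 is a LIM homeodomain factor, TBX2 a T-box repressor that is also known to promote cell cycling, MEIS2 a homeodomain cofactor of the TALE class, and TFAP2B an AP-2 factor of neural crest derivatives.

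Total counts ran from 5318159 to 7864343 per library, with a median of 5966581. TPX2 itself averaged 327 CPM with siNTC, 91.6 with si45, 81.7 with si46 and 71.5 with si47, and every knockdown library was below every control. Markers of other cell types were low. Brain glia markers summed to between 0 and 0.677 CPM in every library, with OLIG2 and MOG at 0 counts in all 16. Schwann cell markers summed to between 5.38 and 11.3 CPM, with SOX10 at 0 counts, and blood and endothelial markers to between 0 and 3.86 CPM, with CD3E and HBB at 0 counts. Adrenal markers summed to between 0.694 and 5.32 CPM, with CYP17A1 and CYP11B1 at 0 counts. Fibroblast markers summed to between 55.0 and 114 CPM, mostly COL1A1, THY1 and PDGFRB, with ranges of 70.7 to 92.5 CPM for siNTC, 55.0 to 79.1 for si45, 72.5 to 114 for si46 and 66.3 to 89.7 for si47. The labelled neuroblast identity had its own markers at hand: ELAVL4, a neuronal RNA-binding protein, averaged 580 CPM in siNTC, CHGA, a secretory granule protein, 544 CPM, and DBH, the enzyme that makes noradrenaline, 234 CPM, while TH, the rate-limiting enzyme of catecholamine synthesis, was at only 2.78 CPM.

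Without a siRNA against TPX2, the siNTC libraries held the 8 factors at very unequal levels. GATA3 was the most abundant at 1106 ± 85.3 CPM (SD, n = 4), a level exceeded by 82 of the tested genes. HAND2 followed at 715 ± 31.6 CPM, TBX2 at 427 ± 44.5, PHOX2A at 394 ± 41.7 and ISL1 at 194 ± 8.81 CPM. Far lower came MEIS2 at 38.9 ± 8.18 CPM, GATA2 at 25.8 ± 3.84 and TFAP2B at 0.593 ± 0.0975. Of the neighbours in this order, TBX2 and PHOX2A did not differ beyond their spread: their siNTC ranges overlapped, and TBX2 was the higher in 12 of 16 libraries. MEIS2 and GATA2 overlapped likewise, with MEIS2 the higher in 11 of 16 libraries. All other neighbours were apart in siNTC and stood in the same order in all 16 libraries. GATA3 carried nearly all GATA transcripts of the GATA2 and GATA3 pair. The spread within siNTC was smallest for HAND2 (coefficient of variation 4.42%) and ISL1 (4.55%) and largest for MEIS2 (21.0%).

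**Figure D1:**
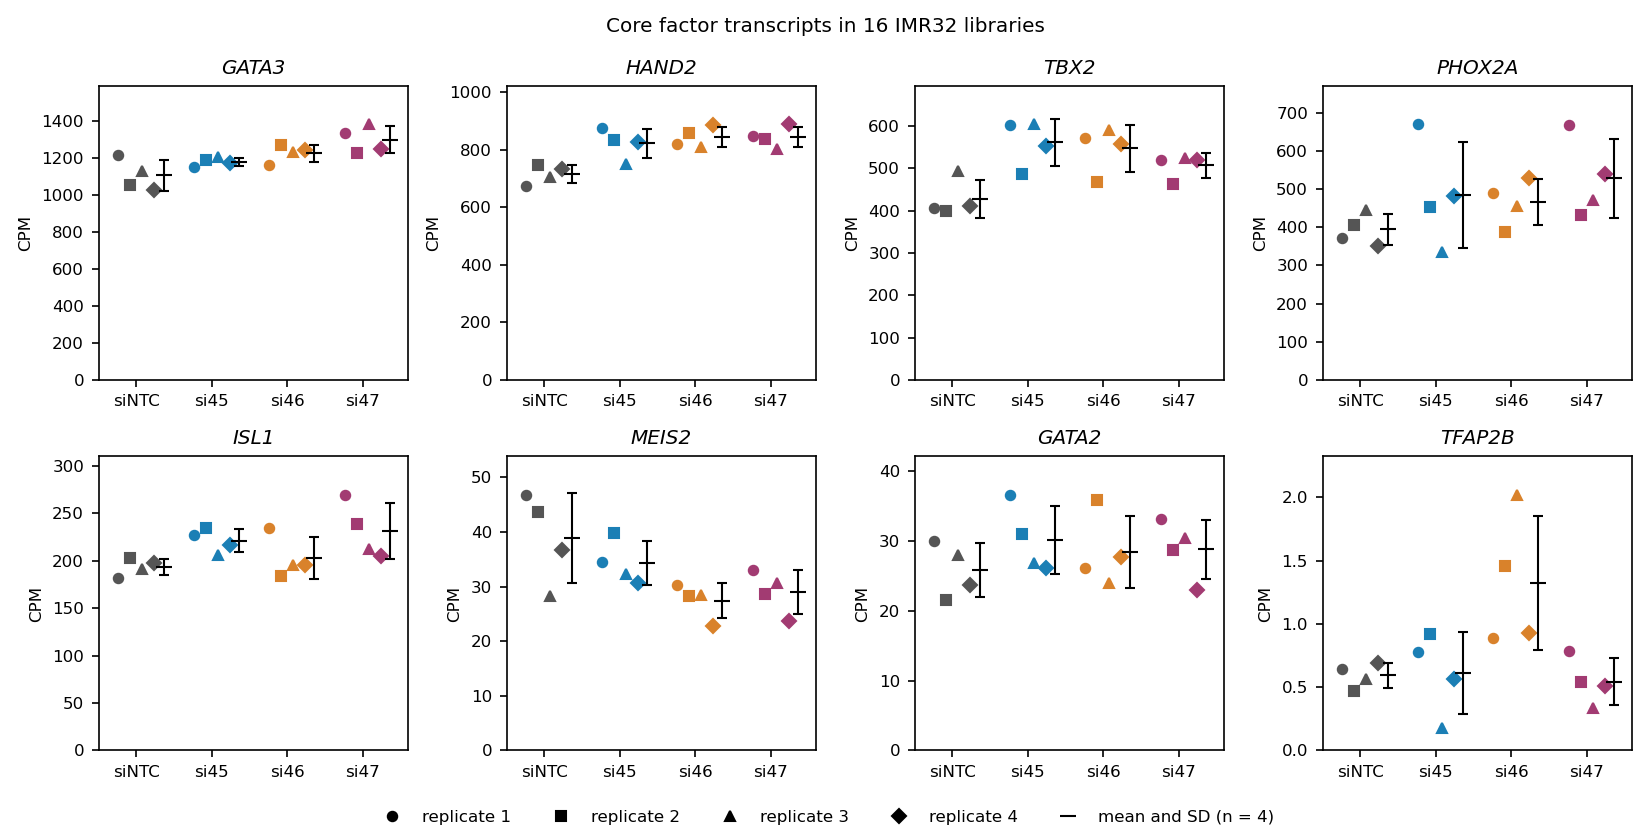
Levels of the 8 core factors in each of the 16 libraries, in CPM on a linear axis that starts at 0 in every panel. Symbols mark the replicates of siNTC, si45, si46 and si47, and the black bar and whiskers give the mean and SD of 4. All 12 knockdown libraries lie above the 4 siNTC libraries for HAND2, and MEIS2 runs the other way with overlap.

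The first question was whether losing TPX2 moved these factors. Of the 7 tested, 6 had a positive fitted change under each siRNA and only MEIS2 a negative one. The changes were small: apart from MEIS2, every factor was between 1.05-fold and 1.34-fold of siNTC. A gene was called when its adjusted p from edgeR's quasi-likelihood test, adjusted over all genes tested, was under 0.05. Under si45 1 core factor was called higher, TBX2, where 1.34% of all genes tested were called (1.01% higher and 0.324% lower). Under si46 1 was called higher, again TBX2, against 3.4% of all genes (2.14% higher and 1.25% lower). Under si47 2 were called higher, HAND2 and GATA3, against 9.74% of all genes (4.91% higher and 4.83% lower). None was called lower by edgeR under any siRNA. When the mean of the 3 siRNAs was set against siNTC, HAND2 and TBX2 were called higher, against 7.14% of all genes (3.61% higher and 3.53% lower).

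The median log2 fold change over the 7 factors was 0.20, 0.15 and 0.24 under si45, si46 and si47, and 0.18 for the mean of the siRNAs. Over all genes tested the medians were 0.00 in each of these comparisons, and 49.8% of genes had a positive fitted change against the mean of the siRNAs. At an unadjusted p under 0.05, 3, 3, 6 and 5 of the 7 factors passed, as did 1617, 2124, 3310 and 2901 of the 14193 genes tested. These comparisons share the 4 siNTC libraries, so a like sign under the 3 siRNAs is not independent evidence. The summed transcripts of the 8 factors averaged 2902 ± 102 CPM (SD, n = 4) over the controls, 3336 ± 187 with si45, 3344 ± 93.9 with si46 and 3469 ± 187 with si47. The highest siNTC library, 3021 CPM, was below the lowest knockdown library, 3162 CPM. GATA3, at 1106 CPM in siNTC, and HAND2, at 715 CPM, made up most of this sum. MEIS2, GATA2 and TFAP2B added little to it. In bulk RNA a change in the number of cells that carry a transcript and a change in the amount per cell cannot be told apart.

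**Figure D2:**
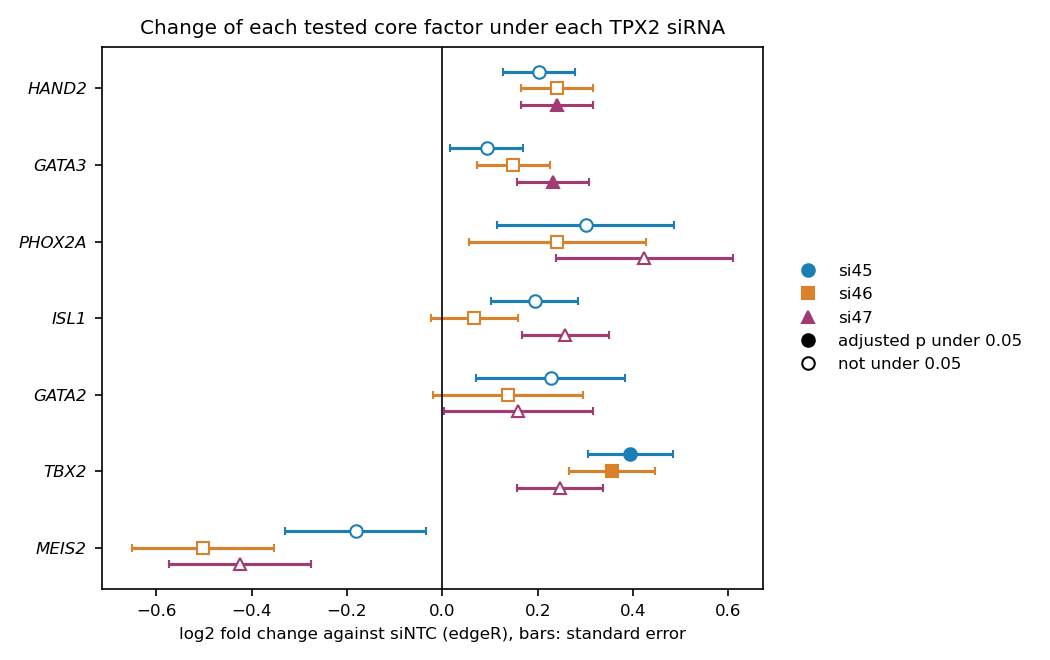
Fitted log2 fold change against siNTC for the 7 tested core factors, with 1 marker per siRNA, bars of 1 standard error, and filled markers for an adjusted p under 0.05 (edgeR). 6 factors lie to the right of 0 under all 3 siRNAs and MEIS2 to the left, and the filled markers are TBX2 under si45 and si46 and HAND2 and GATA3 under si47.

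HAND2 (ENSG00000164107, chr4:173524969-173530229, minus strand, GRCh38) separated control from knockdown most cleanly. It was at 676, 747, 704 and 733 CPM in siNTC replicates 1 to 4. With si45 it was at 875, 834, 752 and 829 CPM, with si46 at 822, 859, 811 and 886 CPM, and with si47 at 850, 836, 804 and 889 CPM. All 12 knockdown libraries were above all 4 control libraries, although the lowest of them, si45 replicate 3, exceeded the highest control by little. HAND2 was the only one of the 7 with this separation over all 12 libraries, which 1.49% of the genes tested showed. Its log2 fold change was 0.20 ± 0.08 (SE) under si45, 0.24 ± 0.08 under si46 and 0.24 ± 0.08 under si47, with edgeR adjusted p of 0.242, 0.0725 and 0.0359. Against the mean of the siRNAs HAND2 rose by 0.23 ± 0.06, or 1.17-fold, with an edgeR adjusted p of 0.0193. That call was lost when siNTC replicate 1 or siNTC replicate 3 was left out, with an adjusted p of at most 0.1001 over the 16 libraries left out in turn. The call under si47 was lost without siNTC replicate 1, 3 or 4 or si47 replicate 1, 2 or 4, with an adjusted p of at most 0.112, and also with no filter on low counts or with only the groups compared. Under si46 HAND2 was called by DESeq2, by limma-voom and by edgeR with the replicate block, though not by edgeR without it.

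HAND2 is also the member whose promoter holds the most matches to the core letters of GATA factors. RefSeq promoters (GRCh38.p14, 250 bases before to 50 after a start) were found for 7 of the 8 factors, and were searched on both strands for those letters, GATAA. The 3 matches at HAND2 are shown here as the most among the 14 promoter entries of these factors. Whether GATA3 acts on HAND2 was not tested. Capitals mark the match, TTATC being GATAA on the other strand, and positions count from the RefSeq start on the gene's own strand.
HAND2 at -234, chr4:173530446-173530475, minus strand: taaacacttgcaTTATCctctgactgataa
HAND2 at -221, chr4:173530433-173530462, minus strand: tatcctctgactGATAAaaaaagttttttt
HAND2 at -172, chr4:173530384-173530413, minus strand: gccaagttttaaTTATCttatggttatgag
The first of these windows overlaps the second, and the third match overlaps the only TAATTA, a homeodomain core, among the promoters of the 7 factors. Of 35116 promoters of the same length, 22.7% hold at least 1 GATAA and 0.891% hold at least 3. HAND2 was picked for its number of matches, so the 0.891% is no test of it. A match describes the letters only, since no binding was measured.

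GATA3 (ENSG00000107485, chr10:8045378-8075203, plus strand) was at 1216, 1054, 1129 and 1025 CPM in siNTC. It was at 1152, 1190, 1204 and 1172 CPM with si45, at 1162, 1269, 1233 and 1242 with si46, and at 1338, 1228, 1382 and 1247 with si47. All 4 si47 libraries were above all 4 controls, whereas siNTC replicate 1 was above every si45 library and within the range of si46. Of the 7 factors 3 were above every control under si47 (GATA3, HAND2 and ISL1), as were 7.41% of all genes tested. The log2 fold change of GATA3 was 0.09 ± 0.08 (SE) under si45 and 0.15 ± 0.08 under si46, neither called, and GATA3 rose by 0.23 ± 0.08, or 1.17-fold, under si47 (edgeR adjusted p = 0.0463). Against the mean of the siRNAs it was 0.16 ± 0.06 (adjusted p = 0.127, edgeR). The si47 call was lost when any of the 4 si47 libraries or siNTC replicate 2, 3 or 4 was left out, with an adjusted p of at most 0.154, and also with no filter on low counts or with only the groups compared. DESeq2 called GATA3 against the mean of the siRNAs. Whether si47 moved GATA3 further than si45 was tested directly: the difference was 0.14 with a 95% interval of -0.01 to 0.29 (edgeR adjusted p = 0.535), although all 4 si47 libraries were above all 4 of si45, as were 2.64% of genes tested.

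GATA2 (ENSG00000179348, chr3:128479427-128493185, minus strand), the scarce GATA factor, was at 29.98, 21.6, 27.99 and 23.8 CPM in siNTC, from 137 to 187 counts per library. With si45 it was at 36.6, 31.0, 26.9 and 26.1 CPM, with si46 at 26.2, 35.8, 24.1 and 27.8, and with si47 at 33.2, 28.7, 30.4 and 23.03. Control and knockdown libraries overlapped under every siRNA. Its log2 fold change was 0.18 ± 0.13 (SE) against the mean of the siRNAs, with a 95% interval of -0.08 to 0.43 and an edgeR adjusted p of 0.482. That interval holds both no change and the change measured for GATA3.

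PHOX2A (ENSG00000165462, chr11:72239077-72245664, minus strand) had the highest fitted change under si47 of the 7 and also the widest spread within si45 and within si47. It was at 373, 407, 446 and 351 CPM in siNTC. With si45 it was at 670, 453, 336 and 483 CPM, with si46 at 490, 388, 456 and 530, and with si47 at 669, 432, 473 and 541. Replicate 1 of si45 and replicate 1 of si47 were the highest libraries, and 9 of the 12 knockdown libraries were above all controls. The knockdown library with the most TPX2 (121 CPM), si45 replicate 3, was below every control. TBX2 was at its highest, 604 CPM, in that same library, and a relation of PHOX2A to the remaining TPX2 was not tested. The log2 fold change of PHOX2A was 0.30 ± 0.19 (SE) under si45, 0.24 ± 0.19 under si46 and 0.42 ± 0.19 under si47. None was called, with edgeR adjusted p of 0.601, 0.620 and 0.186, and 0.258 against the mean of the siRNAs. Under si45 the estimate ran from 0.11 to 0.44 as single libraries were left out, and the coefficient of variation within si45 was 28.5%. With only si47 and siNTC in the fit the si47 change was called (adjusted p = 0.0166, edgeR).

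ISL1 (ENSG00000016082, chr5:51383391-51394738, plus strand) was at 182, 203, 191 and 198 CPM in siNTC. It was at 228, 235, 206 and 217 CPM with si45, at 235, 184, 195 and 196 with si46, and at 270, 239, 212 and 205 with si47. All si45 and all si47 libraries were above all controls, while with si46 only replicate 1 was. Of the 7 factors 2 were above every control under si45 (ISL1 and HAND2), as were 3.36% of genes tested, and 1 under si46 (HAND2), as were 5.06%. Its log2 fold change was 0.19 ± 0.09 (SE) under si45, 0.07 ± 0.09 under si46 and 0.26 ± 0.09 under si47, with edgeR adjusted p of 0.408, 0.807 and 0.0684. Without si46 replicate 1 the si46 estimate turned to -0.014, and without si47 replicate 3 or 4 the si47 change was called (adjusted p of 0.0391 at the lowest, edgeR). The difference of si47 from si46 was 0.19 with a 95% interval of 0.01 to 0.37, which did not survive adjustment (unadjusted p = 0.0438, edgeR adjusted p = 0.670). The ISL1 promoter holds 2 GATAA matches, which 4.80% of promoters have at least, and the farther one from the RefSeq start is shown for comparison with HAND2. That start lies downstream of the GENCODE gene start given above, so the other match falls within the gene as GENCODE has it.
ISL1 at -155, chr5:51383281-51383310, plus strand: aggctgaaatatGATAAtcagaacagctgc

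TBX2 (ENSG00000121068, chr17:61399896-61409466, plus strand) gave the call with the lowest p of the set. It was at 406, 399, 494 and 411 CPM in siNTC. With si45 it was at 604, 486, 604 and 553 CPM, with si46 at 572, 467, 591 and 557, and with si47 at 521, 464, 524 and 519. In siNTC replicate 3 stood well above the other controls. Replicate 2 was the lowest library in every group, siNTC included. In each knockdown group it lay below siNTC replicate 3 and above siNTC replicate 2. The other 9 knockdown libraries were above all 4 controls. TBX2 rose by 0.39 ± 0.09 (SE) on the log2 scale under si45 and by 0.36 ± 0.09 under si46, with edgeR adjusted p of 0.0132 and 0.0190. Under si47 it was 0.25 ± 0.09 with an adjusted p of 0.0779 (edgeR). Against the mean of the siRNAs TBX2 rose by 0.33 ± 0.07, or 1.26-fold (edgeR adjusted p = 0.00378), and this call held as each of the 16 libraries was left out in turn, with adjusted p from 0.00168 to 0.0287.

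The calls of TBX2 under single siRNAs depended on single libraries. Under si45 the call was lost without siNTC replicate 1, 2 or 4 or si45 replicate 1, with an adjusted p of at most 0.0752. Under si46 it was lost without siNTC replicate 1, 2 or 4 or si46 replicate 1, 3 or 4, with an adjusted p of at most 0.0734. Under si47 it was gained without siNTC replicate 3, where the change was 0.32 (adjusted p = 0.0287, edgeR).

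MEIS2 (ENSG00000134138, chr15:36889204-37101299, minus strand) was the one tested factor with a negative change. It was at 46.8, 43.6, 28.4 and 36.8 CPM in siNTC, from 150 to 292 counts. With si45 it was at 34.5, 39.9, 32.2 and 30.6 CPM, with si46 at 30.3, 28.4, 28.4 and 22.7, and with si47 at 33.0, 28.7, 30.7 and 23.7. The controls were themselves widely spread, and siNTC replicate 3 lay among the knockdown libraries, so that only 2 of 12 were below all controls. The log2 fold change was -0.18 ± 0.15 (SE) under si45, -0.50 ± 0.15 under si46 and -0.42 ± 0.15 under si47, with edgeR adjusted p of 0.710, 0.0531 and 0.0656. Against the mean of the siRNAs it was -0.37 ± 0.12 with an edgeR adjusted p of 0.0516, just outside the threshold.

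Whether MEIS2 passed depended on the tool and on single libraries. DESeq2 called it lower under si46 and against the mean of the siRNAs, and limma-voom did not. Without siNTC replicate 3 edgeR called it under si46, under si47 and against the mean, the last with a log2 fold change of -0.49 and an adjusted p of 0.0131. It was also called against the mean without si45 replicate 2, si46 replicate 1, si47 replicate 1 or si47 replicate 3. The difference of si46 from si45 was -0.32 with a 95% interval of -0.61 to -0.03 (unadjusted p = 0.0398, edgeR adjusted p = 1), and all 4 si46 libraries were below all 4 of si45, as were 1.38% of genes tested.

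TFAP2B (ENSG00000008196, chr6:50818723-50847613, plus strand) had too few counts for a test. Its raw counts were 4, 3, 3 and 4 in siNTC, 5, 6, 1 and 3 with si45, 7, 8, 12 and 5 with si46, and 5, 3, 2 and 3 with si47. The si46 libraries held the most, at 0.886 to 2.02 CPM against 0.469 to 0.694 CPM in siNTC, and no test was made on counts so low. The factor's RNA was thus near the detection limit in IMR32 whatever the siRNA.

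Compared directly with one another, the siRNAs gave no call for any of the 7 factors by edgeR in any pair. At an unadjusted p under 0.05, 1 factor passed between si46 and si45 (MEIS2), 0 between si47 and si45 and 1 between si47 and si46 (ISL1), and neither DESeq2 nor limma-voom called any. Over all genes 0.0282%, 0.169% and 0.0493% were called in these pairs. A factor called under one siRNA and not another, such as GATA3 or TBX2, was therefore not shown to differ between them. For TBX2 the difference of si47 from si45 was -0.15 with a 95% interval of -0.32 to 0.03. For HAND2 the interval of the difference of si47 from si46 was -0.15 to 0.15.

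The core factors did not move as one block across libraries. Over the 16 libraries, which share 4 groups, depth and preparation, the correlation of log2 CPM was highest for PHOX2A with HAND2 (r = 0.664) and remained at 0.579 after group means were removed. HAND2 with MEIS2 gave r = -0.605 and TBX2 with MEIS2 r = -0.561, and without group means these were -0.218 and -0.487. GATA3 with HAND2 gave 0.444, and -0.495 once group means were removed, so libraries with more of one than their group tended to have less of the other. GATA2 with GATA3 gave 0.533 without group means. All of these are descriptions of 16 libraries.

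Several core factor genes share their locus with a transcript on the opposite strand, and whether the counting used strand is not given in the sources used here, so sense and antisense reads may be mixed. Shared bases were taken over whole gene spans, introns included, and do not show where reads lie. HAND2-AS1 shares 2960 bases with HAND2, TBX2-AS1 9571 bases with TBX2, GATA2-AS1 3974 with GATA2 and GATA3-AS1 3035 with GATA3. PHOX2A and INPPL1 share 29 bases at their ends. In MEIS2 the opposite transcript AC078909.1 shares 835 bases and averaged 19.5 counts. ISL1 overlaps no gene of GENCODE v29, and its divergent neighbour is ISL1-DT.

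Of 7 antisense and divergent transcripts listed, 5 were matched and tested. Under si47, where 9.74% of all genes tested were called (4.91% higher), edgeR called 3 of the 5 higher: HAND2-AS1 by 0.23 ± 0.08 (SE, adjusted p = 0.0456), GATA3-AS1 by 0.35 ± 0.11 (adjusted p = 0.0275) and ISL1-DT by 0.70 ± 0.20 (adjusted p = 0.0187). Each of these 3 was above all controls in all 4 si47 libraries, and in all 4 si45 libraries too, where none was called. Of all genes tested, 7.41% were above all controls under si47 and 3.36% under si45. HAND2-AS1 was abundant, at 591, 613, 591 and 630 CPM in siNTC and 736, 718, 709 and 684 with si47. ISL1-DT was at 12.2, 11.7, 11.4 and 15.1 CPM in siNTC and 17.0, 22.1, 15.8 and 27.1 with si47. None was called under si45 or si46 by edgeR, DESeq2 or limma-voom, and 1 and 1 passed unadjusted in edgeR. Against the mean of the siRNAs edgeR and limma-voom called none, 3 passed unadjusted in edgeR, and DESeq2 called HAND2-AS1 alone.

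The ratio of HAND2 to HAND2-AS1 counts averaged 1.18 ± 0.03 (SD, n = 4) over the controls, 1.27 ± 0.09 with si45, 1.24 ± 0.14 with si46 and 1.19 ± 0.08 with si47. For TBX2 and TBX2-AS1 the ratio was 14.0 ± 1.98 in siNTC and 18.0 ± 3.90, 17.0 ± 0.950 and 17.5 ± 1.97 with the siRNAs, and TBX2-AS1 changed by 0.03 ± 0.12 (SE) against the mean (adjusted p = 0.932, edgeR). The si47 call of HAND2-AS1 was lost when any of the 8 libraries of that comparison was left out, with no filter on low counts, and with only the groups compared. GATA3-AS1 lost its call without siNTC replicate 1 or si47 replicate 1, and ISL1-DT without siNTC replicate 2 or 3 or si47 replicate 2 or 4.

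HAND2 acts with E proteins (TCF3, TCF4 and TCF12), and the ID proteins, which lack a DNA-binding region, take E proteins out of such dimers. Among the 20 listed partners and inhibitors of the core factors, 19 were tested and 4 were called against the mean of the siRNAs: ID1, ID2 and ID3 higher and ZFPM2 lower. In that comparison 7.14% of all genes tested were called (3.61% higher and 3.53% lower). ID2 was at 178, 180, 194 and 165 CPM in siNTC, and at 278 to 389, 304 to 391 and 317 to 448 CPM in si45, si46 and si47. ID1 was at 124, 100, 132 and 96.3 CPM in siNTC and between 144 and 209 CPM in the 12 knockdown libraries. ID3 was at 29.2, 25.3, 31.4 and 26.5 CPM in siNTC and between 34.5 and 73.8 CPM in the knockdown libraries. For each of the 3 ID genes all 12 knockdown libraries were above all 4 controls, as for 1.49% of genes tested.

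ID2 rose by 1.01 ± 0.09 (SE) against the mean of the siRNAs, or 2.01-fold (edgeR adjusted p = 1.36e-08), and by 0.93, 0.97 and 1.14 under si45, si46 and si47. ID1 rose by 0.67 ± 0.09, or 1.60-fold (adjusted p = 1.08e-05, edgeR). ID3 rose by 0.87 ± 0.18, or 1.83-fold (adjusted p = 0.00449, edgeR); under si45 alone it was 0.81 with an adjusted p of 0.065. The E proteins did not pass: TCF3 was -0.14 ± 0.07 (adjusted p = 0.242), TCF4 0.06 ± 0.07 (0.658) and TCF12 -0.07 ± 0.07 (0.661), all by edgeR. Summed ID transcripts averaged 321 ± 30.3 CPM (SD, n = 4) over the controls, 567 ± 86.2 with si45, 572 ± 62.7 with si46 and 644 ± 74.7 with si47. The E protein sums were 1456 ± 35.9, 1405 ± 107, 1526 ± 46 and 1485 ± 78.3 CPM in the same order. The ratio of ID to E protein counts was 0.221 ± 0.0233 over the controls, 0.405 ± 0.0681 with si45, 0.375 ± 0.0374 with si46 and 0.433 ± 0.0433 with si47. The fitted change of each ID gene was larger than that of HAND2, and protein was not measured.

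**Figure D3:**
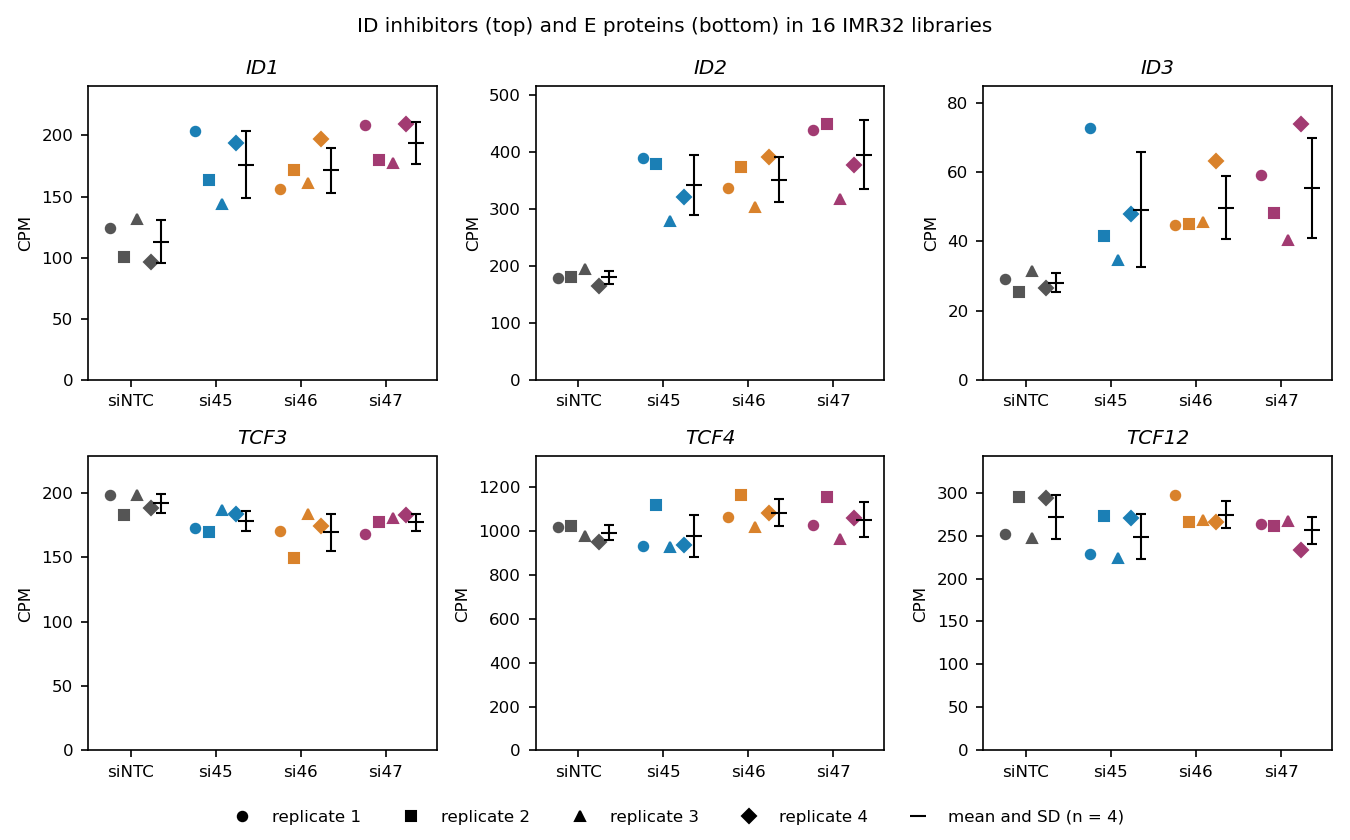
ID1, ID2 and ID3 (top row) and the E proteins TCF3, TCF4 and TCF12 (bottom row) in each of 16 libraries, in CPM from 0, with the replicates as symbols and the mean and SD of 4 in black. For the ID genes every knockdown library is above every siNTC library, and for the E proteins the groups overlap.

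The partners of the other factors showed few calls. ZFPM2, a cofactor of GATA proteins, fell by 0.83 ± 0.26 (SE) on the log2 scale against the mean of the siRNAs (edgeR adjusted p = 0.0435). Its level was low, 5.86 to 8.29 CPM in siNTC and 1.45 to 5.71 CPM in the knockdown libraries. All 12 were below all 4 controls, by a narrow gap, as were 1.03% of genes tested. The call was lost when any of 10 single libraries was left out, among them each control. LMO4, which binds the same LDB1 adaptor as LIM homeodomain factors such as ISL1, was at 0.09 ± 0.10 (adjusted p = 0.658, edgeR), and SSBP3, which stabilises LDB1, at -0.08 ± 0.07 (0.544). The median log2 fold change of the 19 was 0.06, and by siRNA 2, 3 and 3 were called, all of them ID genes. The shares called over all genes tested were 1.34%, 3.4% and 9.74% under si45, si46 and si47.

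Of the 16 listed paralogs of the core factors only 7 were tested, the rest having too few counts. GATA1, GATA6 and TBX5 were at 0 counts in all libraries, and so were TFAP2C and TFAP2D. TBX3, the nearest relative of TBX2 and likewise a repressor, was the one called against the mean of the siRNAs, where 7.14% of all genes tested were called. TBX3 rose by 0.43 ± 0.10 (SE), or 1.35-fold (edgeR adjusted p = 0.00474). It was at 87.9, 77.4, 105 and 88.1 CPM in siNTC, at 130, 90.5, 122 and 132 with si45, at 129, 108, 140 and 138 with si46, and at 118, 97.1, 132 and 115 with si47. As for TBX2, replicate 3 was the highest control and replicate 2 the lowest library of every group, siNTC included.

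Other paralogs went the other way or did not pass. HAND1 was at -0.53 ± 0.19 (SE) against the mean of the siRNAs with an edgeR adjusted p of 0.124, and from 149 to 177 CPM in siNTC against 67.5 to 172 in the knockdown libraries. It was called lower by limma-voom (adjusted p = 0.0104), with the replicate block (0.00272, edgeR) and in edgeR without si45 replicate 3 or si47 replicate 3 (0.0404 and 0.00524). Under si47, TBX1 fell by 0.37 ± 0.11 (adjusted p = 0.0243, edgeR) and ISL2 rose by 1.11 ± 0.34 (adjusted p = 0.0344, edgeR), the latter from a low level of 2.73 CPM in siNTC. The call of TBX1 was lost without siNTC replicate 1 or 4 or si47 replicate 1 or 4, with an adjusted p of at most 0.106 (edgeR). That of ISL2 was lost without siNTC replicate 1, 2 or 3 or si47 replicate 1, 2 or 4, with an adjusted p of at most 0.1004 (edgeR), and with no filter on low counts. MEIS1, at 350 ± 47.6 CPM in siNTC (SD, n = 4), was far more abundant than MEIS2 and changed by -0.05 ± 0.07 (adjusted p = 0.745, edgeR). The median of the 7 was -0.16, and 2 of 7 had a positive change.

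Likeness across libraries was measured as Pearson's r of log2 CPM over the 16 libraries, among 11799 genes with a mean count of at least 20, for the 3 factors with a call. TBX2 was most like TBX3 (r = 0.911) and DKK1 (r = 0.856), and 4 genes exceeded 0.8. GATA3 was most like BAX (r = 0.903) and TAF13 (r = 0.872), with 9 genes over 0.8. HAND2 was most like IER5 (r = 0.946) and PPM1D (r = 0.932), with 211 genes over 0.8. These genes share the libraries, their depth and the contrast of knockdown with control. IER5, PPM1D, BAX, TAF13 and TBX3 were themselves called higher against the mean of the siRNAs (edgeR adjusted p of 2.52e-05, 4.35e-07, 0.00257, 0.0160 and 0.00474), and DKK1 was not (0.0765).

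**Figure D4:**
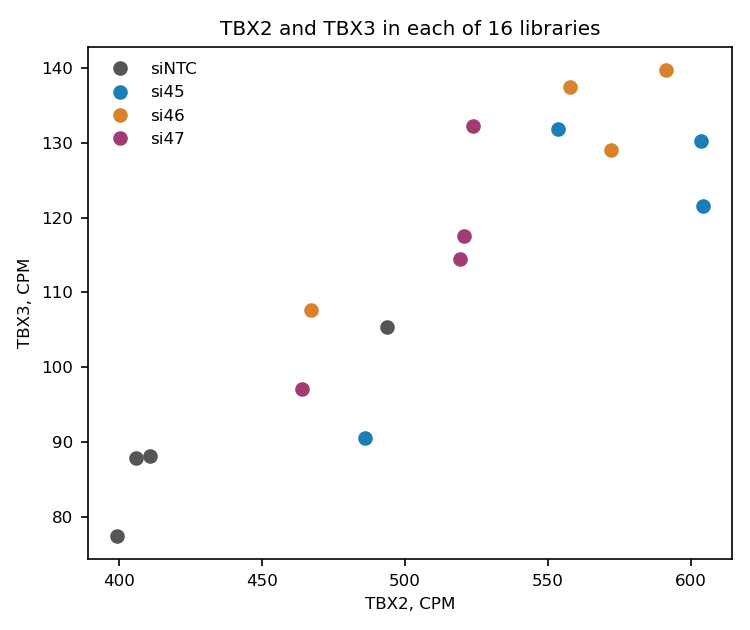
TBX2 on the horizontal axis and TBX3 on the vertical axis, both in CPM on linear axes that do not start at 0, with 1 point for each of 16 libraries coloured by group. The values rise together (r = 0.911 on log2 CPM), with 3 siNTC points at the lower left and siNTC replicate 3, at 494 and 105 CPM, among the knockdown libraries.

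Members of the wider adrenergic program were called in both directions. Of 15 other adrenergic transcription factors, all tested, edgeR called 1 higher and 1 lower against the mean of the siRNAs, with a median of -0.02. Over all genes tested 3.61% were called higher and 3.53% lower. DACH1, a SKI-family repressor, fell by 0.37 ± 0.08 (SE; edgeR adjusted p = 0.00205), from 82.8 to 104 CPM in siNTC to between 63.6 and 77.6 CPM, all 12 knockdown libraries below all controls, as were 1.03% of genes tested. HEY1, a NOTCH target repressor, rose by 1.54 ± 0.45 (adjusted p = 0.0294, edgeR) from only 4 to 13 counts per siNTC library, and lost that call in limma-voom and without siNTC replicate 1, 3 or 4 or si45 replicate 2. MYCN was at 0.38 ± 0.13 (adjusted p = 0.0904, edgeR) and EYA1 at -0.53 ± 0.20 (adjusted p = 0.139, edgeR). MYCN was called higher by DESeq2 (adjusted p = 0.0137), by limma-voom (0.0336), with no filter on low counts (0.00819, edgeR) and with the replicate block (0.00896, edgeR), and also in edgeR without replicate 3 of si45, of si46 or of si47 (0.00657 at the lowest). EYA1 was called lower by limma-voom (adjusted p = 0.0181) and with the replicate block (1.59e-06, edgeR).

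Among 30 sympathoadrenal effector genes, the kind of gene these factors are known to regulate, 28 were tested. Against the mean of the siRNAs 3 were called higher and 1 lower, with a median of 0.12, where 3.61% of all genes tested were called higher and 3.53% lower. The neuropeptide precursor SCG2 rose by 0.75 ± 0.15 (SE; edgeR adjusted p = 0.00308), the granule protein CHGA by 0.67 ± 0.18 (adjusted p = 0.0431, edgeR) and the neurofilament subunit NEFL by 0.56 ± 0.13 (adjusted p = 0.0120, edgeR). DBH, a classical target of noradrenergic determinants, fell by 0.56 ± 0.08, or 0.680-fold (adjusted p = 1.27e-05, edgeR), with 199 to 284 CPM in siNTC and 134 to 196 in the knockdown libraries, all 12 below all controls. Of all genes tested, 1.03% were below all controls in all 12, and for DBH the gap was narrow, 196 against 199 CPM. DBH thus ran against the direction of HAND2 and the other core factors above siNTC. The CHGA call was lost when any of 10 single libraries was left out, all 4 controls among them, and the NEFL call without siNTC replicate 3.

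Of 34 mesenchymal-state transcription factors 24 were tested, with a median of 0.19 against the mean of the siRNAs and 7 past an unadjusted p under 0.05. There 3 were called, all higher, where 7.14% of all genes tested were called (3.61% higher). One of the 3 is ID1, which is also on the list of inhibitors. MEF2D rose by 0.76 ± 0.15 (SE; adjusted p = 0.00102, edgeR), with 11 of 12 knockdown libraries above all controls. KLF4 was called higher (adjusted p = 0.0118, edgeR) from 0 to 5 counts per siNTC library, and that call was lost without siNTC replicate 1, 3 or 4. TWIST1, a mesenchymal regulator also known as a partner of MYCN, was at 244 CPM in siNTC, while PRRX1 had at most 1 count in any library. The median of this list was as high as the 0.18 of the core factors.

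**Figure D5:**
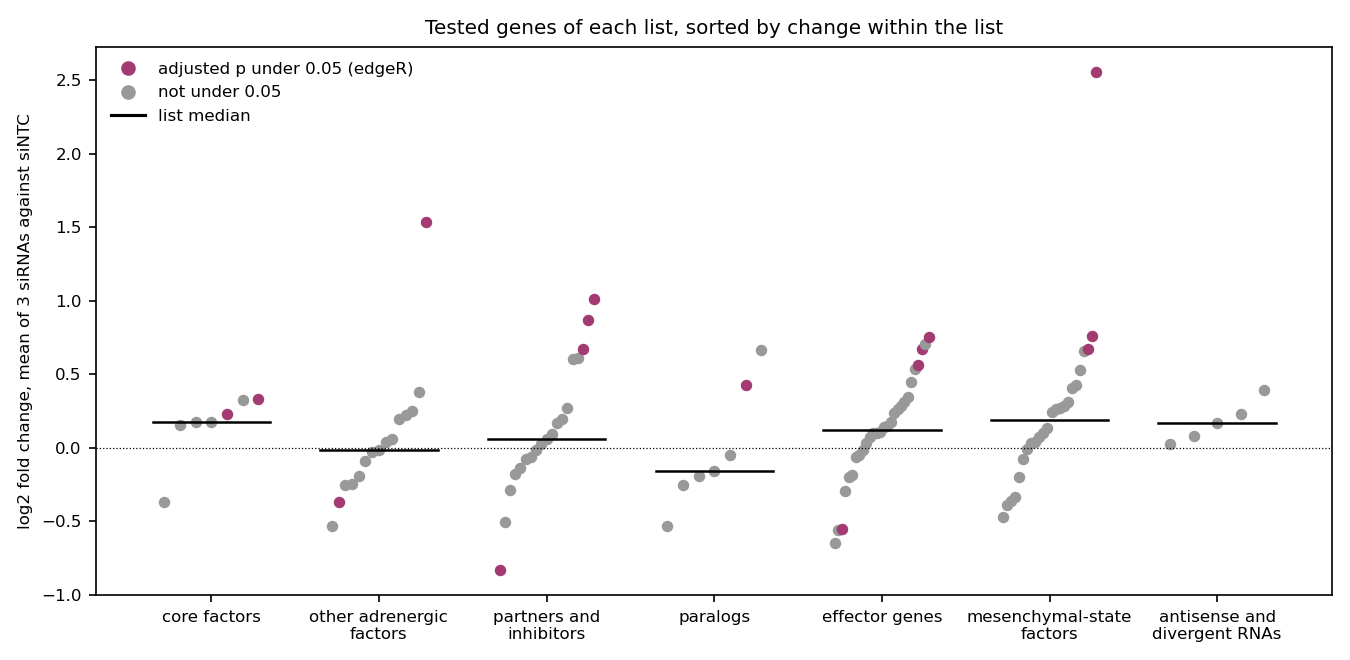
Fitted log2 fold change of every tested gene in 7 lists against the mean of the 3 siRNAs, on a linear axis, with genes sorted by change within each list, coloured points for an adjusted p under 0.05 (edgeR) and a black line for the median. The core factors lie between -0.37 (MEIS2) and 0.33 (TBX2), 6 of 7 above 0, and all 5 antisense and divergent transcripts lie above 0. Single genes of other lists, such as KLF4, HEY1 and ID2, lie farther out.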

How the data were processed

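The authors deposited 1 table of raw read counts, whole numbers per Ensembl gene that were not normalized, for 16 libraries. Per the labels' protocols, libraries were made from total RNA with a 3′ end kit and 15 PCR cycles. The submitters' processing notes list FastQC 0.11.7, STAR 2.7.2b, edgeR 3.36.0, limma 3.50.3 and the GRCh38 build, with no roles. The use of strand and of molecular identifiers is not given in the sources used here, so duplicates may be counted. The design text calls the replicates biological without saying what separates them, so p-values measure the spread between these samples. No pair of replicates agreed within sampling noise (chi-square per degree of freedom 4.36 to 9.80 over 24 pairs). Mitochondrially encoded genes were not analysed here.

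Gene symbols were matched for 58434 of the identifiers, and positions come from GENCODE v29. Genes were kept by filterByExpr (minimum count 10, minimum total 15), scaled by TMM and tested with edgeR 4.0.16 in R 4.3.3 (robust quasi-likelihood fit, 1 mean per group, all 16 libraries). Adjusted p-values are Benjamini-Hochberg over the 14193 genes of each of 7 contrasts, with a threshold of 0.05. A standard error (SE) is the log2 fold change divided by the square root of F, and 95% intervals are normal intervals from it. CPM values use TMM library sizes, and log2 CPM a prior count of 2. The model was also run on simulated counts in which the changed genes moved by 1 on the log2 scale, with no effect shared by replicate numbers. No core factor changed by that much here, so the simulation does not cover changes of their size.

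The members, the lists of other genes, the markers and the rule for names were chosen with earlier results of these data known. The rule names all members, up to 4 genes of each list with the lowest p against the mean of the siRNAs, partners, paralogs and antisense transcripts of at least 20 CPM in siNTC, and the 2 genes most like each called member. Genes named beyond it (ELAVL4, TH, TWIST1, PRRX1, the paralogs and markers given at 0 and the genes called under si47 alone) were chosen after their values were seen. An item that the rule also covers is not reported here. The lists are other adrenergic factors, partners and inhibitors, paralogs, effectors, mesenchymal factors and antisense transcripts.

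Deviations from group means correlated over 0.1 in all 4 same-numbered pairs of si45 and si47 (r = 0.120 to 0.242). They did so in 3 of 4 pairs for si45 with si46 and for si46 with si47. Every same-numbered pair was positive, the lowest at r = 0.0188 between siNTC and si47. Deviations within a group sum to 0, so libraries of unlike number covaried negatively on balance in every pair of groups. Same-numbered libraries were thus the more alike on balance, siNTC included, though their correlations were low. What a number stands for is not given, and its cause was not tested. The labels pair nothing, and the main fit had no replicate block. The alternatives tried were DESeq2 1.42.0, limma-voom (limma 3.58.1), scaling by RLE or upper quartiles, other filters, only the groups compared, the replicate block, an adjusted p under 0.01, and each library left out. RefSeq promoters were searched for 6 motifs on both strands: GATAA (22.7% of promoters with a match), CATCTG (14.7%), TAATTA (4.84%), TGACAG (15.8%), GGTGTGA (3.45%) and GCCNNNGGC (23.2%). GGTGTGA matched no member, CATCTG only TFAP2B, TGACAG only GATA3, and GCCNNNGGC only the promoters of GATA2 and GATA3.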

Additional observations from a re-analysis of the deposited data

Results flagged for a closer look

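In 168 groups of 4 libraries, formed by the core factors and the other named genes in each siRNA group, 11 had a highest or lowest library whose gap to its nearest neighbour exceeded Dixon's 95% critical value, where chance gives about 8.4. TBX2 stood out in 2 groups: siNTC replicate 3 was at 494 CPM against 399 to 411 CPM in the other controls, and si47 replicate 2 was at 464 CPM against 519 to 524. Among the partners, LMO4 was at 188 CPM in si47 replicate 2 (others 275 to 281), TCF4 at 1119 CPM in si45 replicate 2 (926 to 934), and TCF12 at 297 CPM in si46 replicate 1 (266 to 268) and 233 CPM in si47 replicate 4 (261 to 267). ID3 was at 63.3 CPM in si46 replicate 4 against 44.7 to 45.6. Among the antisense transcripts, GATA2-AS1 was at 3.12 CPM in siNTC replicate 4 (5.29 to 5.48), GATA3-AS1 at 48.1 CPM in siNTC replicate 1 (56.7 to 57.4) and TBX2-AS1 at 34.3 CPM in siNTC replicate 4 (28.9 to 29.7). TPX2 was at 121 CPM in si45 replicate 3 against 79.4 to 85.1 in the other si45 libraries. No core factor differed between siRNAs past the threshold of edgeR.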

How the results depend on the processing

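Of the fitted changes of single core factors under all alternatives, 471 kept direction and side of the threshold, 26 gained a call, 34 lost one and 1 reversed. edgeR called 1, 1, 2 and 2 core factors under si45, si46, si47 and against the mean of the siRNAs. At an adjusted p under 0.01 these were 0, 0, 0 and 1 (TBX2). DESeq2 called 3 under si46 (HAND2, TBX2, MEIS2) and 4 against the mean (with GATA3), limma-voom 2 under si46 (HAND2, TBX2). With no filter on low counts 2 were called under si46 (TBX2, MEIS2) and 0 under si47, and with only the groups compared 2 under si46 (TBX2, MEIS2) and 1 under si47 (PHOX2A). With libraries left out the counts ran from 0 to 1 under si45, 0 to 2 under si46 and 0 to 2 under si47. Against the mean they ran from 1 to 3 (HAND2, TBX2 and MEIS2). Except where fewer genes or samples were tested, the cause was not tested. No core factor was called between siRNAs under any alternative.

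Between si45 and si47, whose same-numbered libraries correlated most evenly, the replicate block changed no member's call. In the other pairs of groups, too, same-numbered libraries were the more alike on balance, and the main fit takes no account of this. Against siNTC the replicate block called 3 core factors under si46 (HAND2, TBX2, MEIS2), 5 under si47 (HAND2, GATA3, ISL1, TBX2, MEIS2) and 4 against the mean (HAND2, GATA3, TBX2, MEIS2). It raised all genes called from 190, 482, 1382 and 1014 to 577, 1073, 2198 and 1817.

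Reversals came only from single libraries left out: ISL1 under si46 ran from -0.014 (without si46 replicate 1) to 0.11, and against the mean MEIS1 from -0.12 to 0.037 (without siNTC replicate 2), GATA2-AS1 from -0.081 (without siNTC replicate 4) to 0.15 and TBX2-AS1 from -0.020 (without si45 replicate 3) to 0.086. All genes called under si45 were 292 with DESeq2, 356 with no filter, 406 when si45 replicate 3 was left out, 97 when si45 replicate 1 was and 119 when siNTC replicate 2 was. Under si46 they were 252 and 253 when replicates 2 and 4 of si46 were left out in turn, and 293, 318 and 301 for replicates 1, 2 and 4 of siNTC. Against the mean they were 629, 675 and 632 without siNTC replicates 1, 3 and 4. At an adjusted p under 0.01 they were 96, 189, 673 and 440. Between siRNAs, all genes called were 4, 24 and 7 (si46 with si45, si47 with si45, si47 with si46), against 10, 137 and 28 with DESeq2, 14, 166 and 44 with no filter, and 33, 398 and 108 with the block. si47 with si45 gave 8 at an adjusted p under 0.01, and si47 with si46 gave 4 with only the groups compared. With single libraries left out these ran from 4 to 7 (without si46 replicate 1), from 10 (without si45 replicate 4) to 147 (without si47 replicate 3) and from 2 (without si46 replicate 3) to 23 (without si47 replicate 3). For si47 with si45 they were also 15, 39, 15, 12 and 12 without si45 replicate 3, si46 replicate 2 and si47 replicates 1, 2 and 4, and for si47 with si46 they were 3 and 4 without si47 replicates 1 and 2. TFAP2B had too few counts for a test.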
